A study of Arabidopsis thaliana with 27 samples.

Results

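Transcript signals of 5 genes of cell expansion and auxin-linked growth were followed in Arabidopsis rosettes: the expansin EXPA8, the expansin-like gene EXLA1, EXORDIUM (EXO), ARGOS-LIKE (ARL) and the AUX/IAA gene IAA29. They were chosen by name, with their levels over all 9 groups of the study already known, from 13286 genes that are paired with an array probe set. Their loci are AT2G40610 for EXPA8, AT3G45970 for EXLA1, AT4G08950 for EXO, AT2G44080 for ARL and AT4G32280 for IAA29, and each is read by 1 probe set that is paired with no other gene. Because their pattern chose them, the differences of these genes between groups are a description with no test.

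The study asked how plants respond to H2O2 formed in peroxisomes or in plastids. The genotypes were: Col-0 wild type (WT), cat2-2 (cat2), a Salk insertion mutant short of catalase, and GO5, whose chloroplasts carry an added glycolate oxidase. They were grown in soil at 3000 ppm CO2 in days of 16 h light at 22 °C and nights of 8 h at 18 °C, under a photon flux of 75 µmol per square metre and second. Rosettes aged 3 weeks were taken at 0 h, once plants had spent 8 h at 380 ppm (ambient CO2), or from plants left at 3000 ppm for those 8 h (high CO2). Each genotype and condition gave 3 arrays, each from a pool of 2 whole rosettes, 27 arrays in all. cat2 keeps some catalase activity, and cat2 and GO5 are 1 line each, so line and genotype cannot be told apart. All plants, the controls included, had grown at high CO2 until harvest or transfer, and harvests at 0 h and 8 h also differ in time of day.

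A growing leaf cell enlarges when turgor stretches a wall that has been loosened. Alpha-expansins loosen walls at acid pH without cutting their polymers, and xyloglucan transferases (XTH) cut and rejoin xyloglucan chains. Auxin and brassinosteroid promote this growth: auxin leads to the breakdown of AUX/IAA repressor proteins, while brassinosteroid raises transcripts such as EXO and ARL.

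The arrays gave log2 signals, on which a difference of 1 is a doubling. Values are from the same probe set throughout and no gene is set against another by level, since probe sets differ in brightness. Within-group array correlations had a lowest mean of 0.969, on WT ambient replicate 1, and the median SD over probe sets was 0.237 in WT at ambient CO2 against 0.122 to 0.172 in the other groups. The GAPDH 3' minus 5' control difference, a sign of RNA quality, averaged 2.12 ± 0.61 for the ambient WT arrays (SD, n = 3) and 2.09 ± 0.31 for those of WT kept at high CO2, with 1.49 to 1.83 in the other group means. Of 7 leaf markers only RCA is paired here, at 12.5 to 13.4, and of 5 root markers the root-hair expansin EXPA7 stood at 2.31 to 3.07 and PYK10 at 10.1 to 11.4. The leaf marker RCA was lower after 8 h at high CO2 than at 0 h without overlap in every genotype, at 12.73 to 13.05 against 13.22 to 13.35 in WT, 12.91 to 12.98 against 13.26 to 13.38 in cat2, and 12.74 to 12.96 against 13.31 to 13.42 in GO5. At ambient CO2 it ranged from 12.52 to 12.98 in WT, 12.63 to 13.10 in cat2 and 12.59 to 13.05 in GO5. The summed root signal was 10.16 to 10.79 at 0 h and 10.97 to 11.30 after 8 h at high CO2 in WT, 10.45 to 10.77 and 10.40 to 11.35 in cat2, and 10.29 to 10.50 and 11.15 to 11.37 in GO5, so that these conditions did not overlap in WT and GO5. At ambient CO2 it was 10.13 to 11.42 in WT, 10.98 to 11.25 in cat2 and 10.44 to 11.18 in GO5. This sum is almost wholly PYK10, since EXPA7 is far dimmer. EXPA7 itself averaged 2.82 at 0 h and 2.78 after 8 h at high CO2 in WT. In cat2 these means were 2.81 and 2.76, and in GO5 2.79 and 2.75. The part of the RCA and PYK10 shifts in the results was not tested. None of 5 flower and 4 cell-division markers is paired, so these were not analysed here. In whole rosettes fewer cells of a type and less RNA per cell cannot be told apart.

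EXPA8, the alpha-expansin, was lower at ambient than at high CO2 in every genotype, and its 3 genotypes overlapped in each condition. After 8 h at high CO2 the signals were 7.59, 8.26 and 9.35 in WT, 9.08, 8.43 and 9.55 in cat2, and 8.30, 7.67 and 8.49 in GO5 (replicates 1 to 3). After 8 h at ambient CO2 they were 5.92, 5.34 and 6.34 in WT, 4.74, 4.98 and 6.76 in cat2, and 4.88, 3.95 and 6.43 in GO5. The highest ambient array, cat2 replicate 3 at 6.76, lay below the lowest high-CO2 array, WT replicate 1 at 7.59. The fitted ambient minus high CO2 difference was -2.53 in WT, -3.53 in cat2 and -3.06 in GO5 (SE 0.71 each, n = 3 arrays per group), that is 5.79-fold, 11.5-fold and 8.36-fold lower. Without cat2 ambient replicate 3 the cat2 value was -4.16, and without GO5 ambient replicate 3 the GO5 value was -3.74. The difference between these genotype responses was -0.99 for cat2 minus WT and -0.53 for GO5 minus WT, each near its SE of 1.01 or below it.

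At 0 h EXPA8 stood at 8.46, 8.59 and 6.76 in WT, 8.35, 9.08 and 6.77 in cat2, and 8.28, 8.78 and 6.63 in GO5. In each genotype the array numbered 3 was the low one, by -1.76 in WT, -1.95 in cat2 and -1.90 in GO5 against the mean of the other arrays. Over all 22746 probe sets tested, 154 (0.677%) were more than 1 log2 unit lower on the third 0 h array of every genotype, and 152 (0.668%) were more than 1 higher. High CO2 at 8 h minus 0 h was 0.46 in WT, 0.95 in cat2 and 0.26 in GO5 with all arrays, and -0.12, 0.30 and -0.38 without the third 0 h arrays. Ambient at 8 h minus 0 h kept its sign under that change, at -2.07, -2.57 and -2.81 with all arrays and -2.66, -3.22 and -3.44 without.

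IAA29, one of the repressors that auxin removes and a known target of the light- and warmth-regulated PIF factors, had a pattern close to that of EXPA8. At high CO2 after 8 h its signals were 4.49, 5.60 and 6.48 in WT, 6.11, 5.59 and 6.54 in cat2, and 5.75, 5.60 and 6.07 in GO5. At ambient CO2 they were 3.71, 3.42 and 4.28 in WT, 3.39, 3.55 and 3.73 in cat2, and 3.72, 3.03 and 3.57 in GO5. No ambient array reached a high-CO2 array, though in WT the gap between 4.28 and 4.49 was small. Ambient minus high CO2 was -1.72 in WT, -2.52 in cat2 and -2.37 in GO5 (SE 0.67 each), or 3.31-fold, 5.74-fold and 5.15-fold lower. IAA29 is the weakest probe set of the 5. Its mean lay at percentile 43.9 of all probe sets and its lowest array, in GO5 at ambient, at percentile 22.4, so the ambient levels lie close to the background and the fold may be understated.

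The 0 h signals of IAA29 were 5.70, 5.99 and 3.91 in WT, 5.72, 6.79 and 4.03 in cat2, and 5.92, 6.61 and 3.77 in GO5. Again the third array of each genotype was low, by -1.93, -2.23 and -2.50 in that order, down to the range of the ambient arrays. In WT this made 0 h and ambient overlap, and ambient minus 0 h was -1.40, against -2.04 without the third 0 h array. The matching values were -1.96 and -2.70 in cat2, and -1.99 and -2.82 in GO5. High CO2 at 8 h minus 0 h had no settled sign: 0.33, 0.56 and 0.37 with all arrays in WT, cat2 and GO5, and -0.32, -0.18 and -0.46 without the third 0 h arrays. IAA29 in cat2 and GO5 also leaned on the second 0 h array, without which ambient minus 0 h was -1.32 and -1.40. Among the related genes, HAT2 and EXPB1 were likewise low on the third 0 h array, HAT2 by -1.60 in WT, -1.51 in cat2 and -1.86 in GO5, and EXPB1 by -1.60, -1.16 and -1.57.

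**Figure D1:**
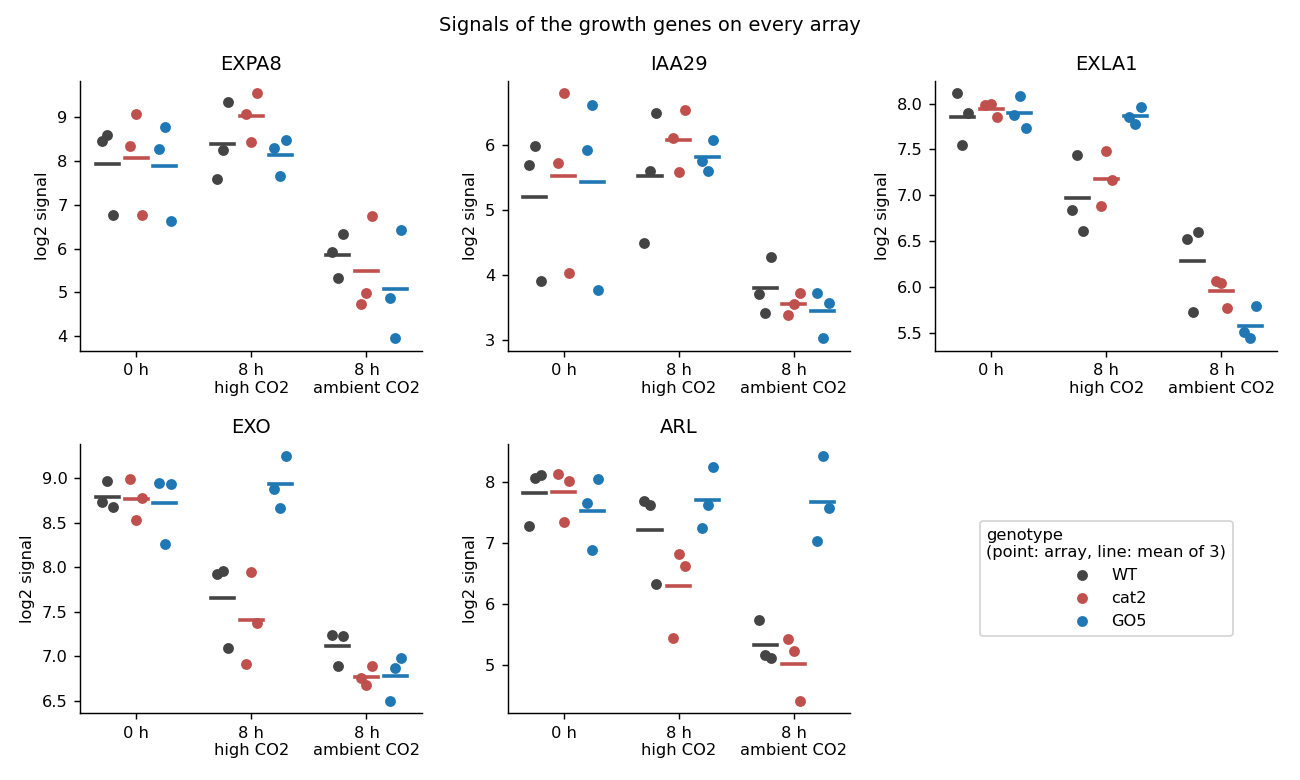
Log2 signal of each gene on every array (vertical axes) by condition (horizontal axes), with 1 point per array, a line at the mean of 3, and colour for genotype. EXPA8 and IAA29 are low at ambient CO2 in all genotypes and on the third 0 h array, EXLA1 and EXO at 8 h of high CO2 stay near the 0 h level in GO5 alone, and ARL in GO5 lies at 7.03 to 8.42 at ambient CO2 against 4.41 to 5.74 in WT and cat2.

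EXLA1, an expansin-like protein for which wall loosening has not been shown, was uniform at 0 h and differed between genotypes later. At 0 h it stood at 8.11, 7.55 and 7.90 in WT, 7.99, 8.00 and 7.85 in cat2, and 7.88, 8.08 and 7.73 in GO5. After 8 h at high CO2 the signals were 6.84, 7.44 and 6.62 in WT and 6.88, 7.48 and 7.16 in cat2, all below their 0 h arrays. In GO5 they were 7.85, 7.78 and 7.96, inside the 0 h range and above every WT and cat2 array of that condition. High CO2 at 8 h minus 0 h was -0.89 in WT and -0.77 in cat2 against -0.036 in GO5 (SE 0.21 each). GO5 was 1.86-fold above WT and 1.61-fold above cat2 after 8 h at high CO2, with log2 differences of 0.89 and 0.69.

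At ambient CO2 EXLA1 was lower in all genotypes, at 6.52, 5.73 and 6.60 in WT, 6.07, 6.05 and 5.77 in cat2, and 5.51, 5.44 and 5.79 in GO5. The order of the means was WT, cat2, GO5, and neighbours in this order overlapped. Ambient minus high CO2 was -0.68 in WT, -1.22 in cat2 and -2.28 in GO5, the last a 4.85-fold lower signal. The GO5 response differed from that of WT by -1.60 ± 0.30 and from that of cat2 by -1.06 ± 0.30 (SE). GO5 and WT were apart without overlap at high CO2, where GO5 minus WT was 0.89. At ambient CO2 GO5 minus WT was -0.70, but GO5 replicate 3 at 5.79 and WT replicate 2 at 5.73 overlapped.

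EXO, a secreted protein through which brassinosteroid promotes leaf cell expansion, showed the same contrast at high CO2 with a wider gap. At 0 h its signals were 8.73, 8.96 and 8.68 in WT, 8.98, 8.53 and 8.77 in cat2, and 8.95, 8.26 and 8.94 in GO5. After 8 h at high CO2 they were 7.92, 7.95 and 7.09 in WT and 6.91, 7.94 and 7.37 in cat2, but 8.88, 8.66 and 9.25 in GO5. WT and cat2 thus lay below their 0 h arrays and GO5 overlapped them, with differences of -1.14, -1.36 and 0.22 (SE 0.25 each). GO5 was 2.42-fold above WT and 2.87-fold above cat2 at this point, and no arrays overlapped.

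At ambient CO2 the genotypes of EXO came together, at 7.24, 6.89 and 7.23 in WT, 6.75, 6.68 and 6.89 in cat2, and 6.50, 6.87 and 6.98 in GO5. Every cat2 array was below every WT array, the nearest at 6.886 and 6.894, and the group difference was -0.35 with an SE of 0.25; 7.72% of all probe sets were lower without overlap in this comparison. Ambient minus high CO2 was -0.54 in WT, where arrays overlapped, -0.63 in cat2, where they did not, and -2.15 in GO5, a 4.43-fold lower signal. The response of GO5 differed from that of WT by -1.61 ± 0.35 and from that of cat2 by -1.51 ± 0.35. In EXO the genotypes were apart at the high-CO2 end, and GO5 minus WT at ambient CO2 was -0.34 with overlapping arrays.

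ARL, a relative of ARGOS that raises cell size in leaves downstream of brassinosteroid, was the gene whose ambient level set GO5 apart. Its 0 h signals were 7.28, 8.06 and 8.12 in WT, 8.13, 7.34 and 8.01 in cat2, and 7.65, 6.88 and 8.04 in GO5. After 8 h at ambient CO2 they were 5.74, 5.16 and 5.11 in WT, 5.42, 5.23 and 4.41 in cat2, and 7.03, 8.42 and 7.57 in GO5. The lowest GO5 array was more than 1 log2 unit above the highest WT or cat2 array. WT and cat2 overlapped, and cat2 minus WT was -0.31 with all arrays and 0.19 without WT replicate 1 and cat2 replicate 3, so these have no settled order. GO5 was 5.06-fold above WT and 6.30-fold above cat2, with log2 differences of 2.34 and 2.65 (SE 0.44 each). When each array was left out in turn the difference from WT stayed between 1.97 and 2.66 and that from cat2 between 2.28 and 2.98.

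At 8 h of high CO2 ARL was spread widely, at 7.68, 7.62 and 6.32 in WT, 5.44, 6.82 and 6.61 in cat2, and 7.24, 7.62 and 8.25 in GO5. The GO5 arrays lay above all cat2 arrays (difference 1.41) and overlapped WT (0.49). Ambient minus high CO2 was -1.88 in WT and -1.27 in cat2, with no overlap in either; in cat2 the nearest arrays stood at 5.44 and 5.42. In GO5 it was -0.027 with overlap, and leaving out 1 array gave -0.40 to 0.30. The GO5 response differed from that of WT by 1.85 ± 0.62 and from that of cat2 by 1.25 ± 0.62, the opposite sign to EXLA1 and EXO. Against 0 h, the GO5 signal after 8 h differed by 0.15 at ambient and 0.18 at high CO2, while cat2 differed by -2.81 and -1.54, and WT by -2.48 and -0.61.

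Side by side, the 5 genes fell into patterns that the plot of fitted differences shows for both steps. At 0 h the arrays of the genotypes overlapped in all 5 genes, while 5.74% (cat2 and WT), 8.51% (GO5 and WT) and 6.16% (GO5 and cat2) of all probe sets had no overlap. From 0 h to 8 h at high CO2, EXO and EXLA1 were lower in WT and cat2, ARL was lower without overlap in cat2 only, and no gene stood apart from its 0 h arrays in GO5; 15.3%, 16.2% and 18.6% of all probe sets were lower without overlap in WT, cat2 and GO5. From high to ambient CO2, 4 of 5 genes had non-overlapping lower signals in WT (all but EXO), 5 of 5 in cat2 and 4 of 5 in GO5 (all but ARL). Of all probe sets, 6.97%, 20.9% and 21.4% were lower without overlap in these comparisons. By the fit across all probe sets (limma, adjusted p under 0.05), 2, 3 and 4 members were called, all lower, where 1.99%, 6.11% and 9.99% of all probe sets were. For high CO2 at 8 h minus 0 h, 2, 3 and 0 members were called lower in WT, cat2 and GO5, beside 6.5%, 5.92% and 6.87% of all probe sets. These counts say nothing beyond the choice of the genes, which used the same values. Steps that share a group, such as the high-CO2 arrays here, are not independent of each other: where that group is high, one step is more positive and the next more negative.

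**Figure D2:**
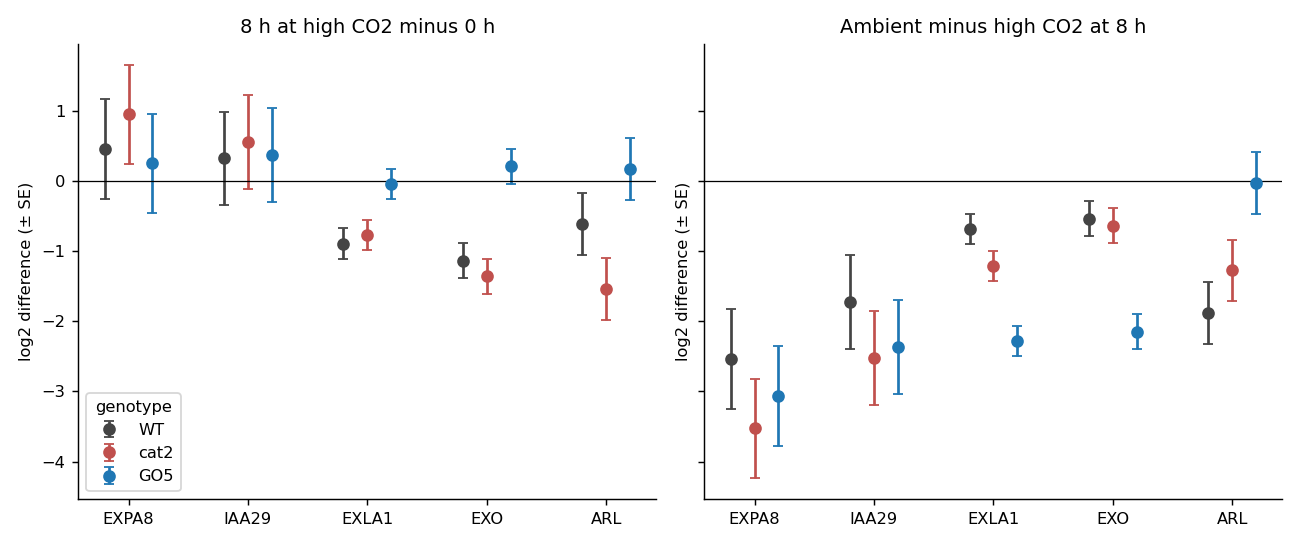
Fitted log2 differences (vertical axis, bars ± SE, 3 arrays per group) of the 5 genes (horizontal axis), left for 8 h at high CO2 minus 0 h and right for ambient minus high CO2 at 8 h, coloured by genotype. On the right GO5 has the most negative values of EXLA1 (-2.28) and EXO (-2.15) and a value of ARL near 0 (-0.027); both panels share the 8 h high-CO2 arrays.

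The order of the 9 groups differed from gene to gene. EXPA8 had its highest mean in cat2 at high CO2 (9.02) and its lowest in GO5 at ambient (5.09), and the only break between neighbouring groups without overlap was the one above the ambient groups, between GO5 at 0 h (7.90) and WT at ambient (5.87). IAA29 also ran from cat2 at high CO2 (6.08) to GO5 at ambient (3.44), with overlap between all neighbours. EXLA1 had breaks below the 0 h groups and GO5 at high CO2 (lowest of these, WT at 0 h, 7.86), and between WT at high CO2 (6.97) and WT at ambient (6.29). EXO had 1 break, between GO5 at 0 h (8.71) and WT at high CO2 (7.66), with GO5 at high CO2 (8.93) the highest group. ARL ran from cat2 at 0 h (7.83) to WT (5.33) and cat2 (5.02) at ambient, with overlap between all neighbours. The share of each gene's variance over the 27 arrays that lay between groups was 93.7% for EXLA1, 91.4% for EXO, 82.8% for ARL, 75.4% for EXPA8 and 64.4% for IAA29. Pooled within-group SDs were 0.276, 0.323, 0.582, 0.945 and 0.885 in that order, and the last of these, with that of EXPA8, are above those of 99.2% and 99.4% of all probe sets.

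EXPA8 and IAA29 varied together also between arrays of the same group. Their Pearson r was 0.94 over the 27 arrays and 0.85 over each array's deviation from its group mean, and the third 0 h arrays are low for both. The ambient arrays and these 0 h arrays lie low for both genes. EXLA1 and EXO had r of 0.92 over the arrays and 0.42 over deviations. ARL and EXO had 0.70 and 0.74. ARL against EXPA8 and IAA29 had 0.23 for both over arrays, and -0.57 and -0.52 over deviations. All genes share the same arrays, rosettes and normalization, so these are descriptions of the 27 arrays.

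**Figure D3:**
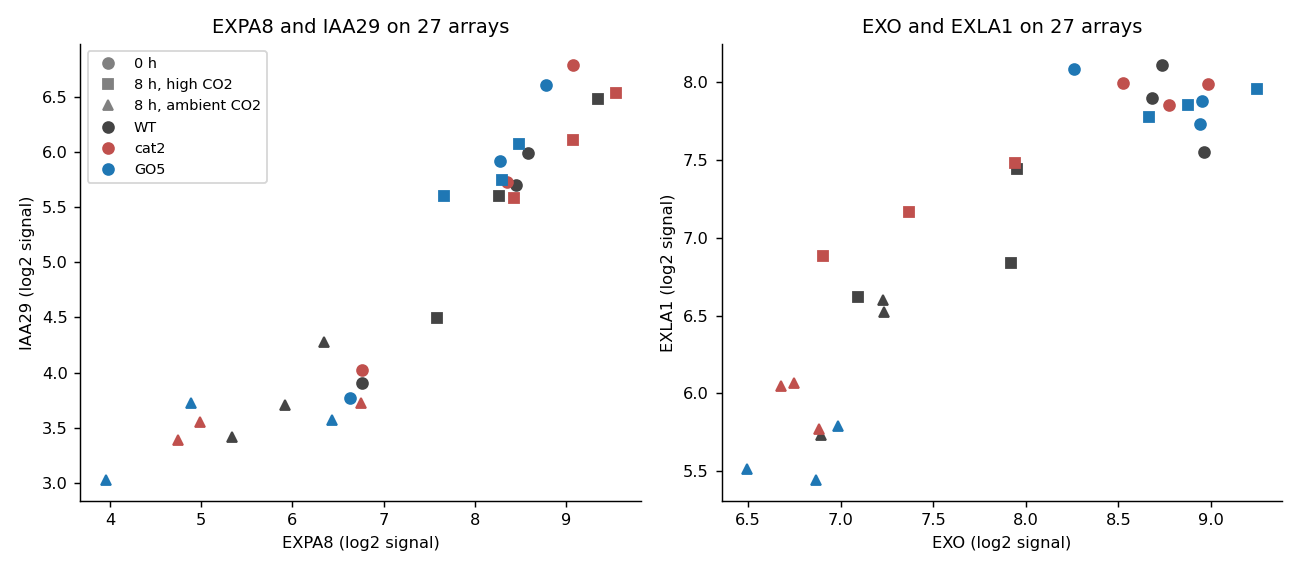
Log2 signals of IAA29 against EXPA8 (left) and of EXLA1 against EXO (right) on the 27 arrays, with shape for condition and colour for genotype. Left, r is 0.94 and 3 of the 0 h points, the third array of each genotype, lie low on both axes; right, r is 0.92 and the GO5 points at high CO2 lie among the 0 h points.

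Among 7349 other single-gene probe sets with a mean signal at or above percentile 40, those most like each gene over the 27 arrays were looked up by Pearson r. EXPA8 was most like AT5G66590 (r = 0.971), the bZIP gene BZIP61 (0.962) and AT5G44680 (0.953). IAA29 was most like ALN (0.959), which encodes allantoinase, an enzyme of purine breakdown, then P1R1 (0.947) and EXPA8 itself (0.940). For EXLA1 they were XTH16 (0.937), a xyloglucan transferase, AT1G62480 (0.931) and AT2G31730 (0.929). EXO was most like EXLA1 (0.916), AT1G44830 (0.915) and again AT2G31730 (0.903). For ARL they were AT5G05450 (0.879), DIM1A (0.864), which encodes an rRNA dimethylase, and AT4G25710 (0.851). At ambient CO2 AT5G05450 had means of 5.86 ± 0.16 in WT, 5.76 ± 0.08 in cat2 and 6.49 ± 0.17 in GO5 (SD, n = 3).

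Other genes of these families and pathways were tested as lists, with the 5 genes left out. These lists were also chosen with earlier results of the same data known, so their calls are no independent support. Of 12 lists, 6 had paired probe sets, 42 in all: 17 of 35 expansins, 10 of 33 XTH genes, 6 of 31 AUX/IAA genes, 5 of 8 GH3 genes, 3 of 11 gibberellin genes and 1 of 16 PIF and shade genes. SAUR, EXORDIUM-like, ARGOS-type, brassinosteroid synthesis and signalling, and auxin perception and transport genes were not analysed here. In the limma fit across all probe sets, a gene was called at an adjusted p under 0.05. For ambient minus high CO2, limma called 4 of 42 in WT (3 higher, 1 lower), 9 in cat2 (4 higher, 5 lower) and 12 in GO5 (6 higher, 6 lower). That is 9.52%, 21.4% and 28.6% of the lists, beside 4.77%, 11.3% and 17.7% of all probe sets. The lists' median differences were 0.031, -0.047 and -0.017, close to those of all probe sets (0.0016, -0.055 and -0.039). Without GO5 ambient replicate 2 the GO5 count was 7.

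Of 17 other expansins, 2 were higher and 0 lower at ambient CO2 in WT, 2 higher and 1 lower in cat2, and 3 higher and 2 lower in GO5. EXPA16 was higher at ambient than at high CO2 by 2.77 ± 0.47 in WT (mean 6.40 against 3.63, limma adjusted p = 0.00101), 2.28 in cat2 (adjusted p = 0.00293) and 2.66 in GO5 (adjusted p = 0.000426). EXPA4 was higher by 1.44 ± 0.32 in WT (adjusted p = 0.00868), 1.15 in cat2 (0.0217) and 1.65 in GO5 (0.000881). The EXPA4 call was lost in WT without WT ambient replicate 1 or WT high replicate 2 and in cat2 without any of 3 single arrays, and both WT calls were lost when only the WT arrays compared were fitted. EXLA2, of the same expansin-like A group as EXLA1, was lower by -0.93 ± 0.19 in cat2 (mean 4.72 against 5.66, adjusted p = 0.00289), with 0.026 in WT (adjusted p = 0.962) and -0.70 in GO5 (adjusted p = 0.0149). In GO5 the expansin-like EXLB1 was lower (-1.20 ± 0.32, adjusted p = 0.0115) and the beta-expansin EXPB3 higher (1.07 ± 0.32, adjusted p = 0.0242). The EXPB3 call was lost without any of 5 single arrays, and that of EXLB1 without GO5 ambient replicate 2 or GO5 high replicate 2.

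Of 10 xyloglucan transferases, 1 was higher in WT, 1 higher and 2 lower in cat2, and 2 higher and 2 lower in GO5. Among them XTH19 had the largest difference of the 42 genes in each genotype. It was higher at ambient than at high CO2 by 2.96 ± 0.34 in WT (adjusted p = 8.95e-06), 3.46 in cat2 (7.75e-07) and 2.67 in GO5 (1.28e-05). Its means put the change on the high-CO2 side: 7.11, 6.84 and 6.78 at 0 h in WT, cat2 and GO5, 3.98, 3.81 and 3.599 after 8 h at high CO2, and 6.93, 7.27 and 6.27 after 8 h at ambient CO2. High CO2 at 8 h minus 0 h was -3.13, -3.03 and -3.18, with adjusted p of 1.22e-06, 1.91e-06 and 9.02e-07. XTH16 went with EXLA1: ambient minus high CO2 was -0.85 in WT (adjusted p = 0.0713), -1.23 in cat2 (0.00437) and -1.94 in GO5 (3.34e-05). In GO5 EXGT-A3 was also lower (-0.61, adjusted p = 0.0344), and in cat2 XTH33 was (-0.70, adjusted p = 0.033); both calls were lost on leaving out 1 of several arrays. XTH29 was higher in GO5 at ambient CO2, at 4.01 ± 0.79 (SD, n = 3), against 2.70 ± 0.08 in GO5 at high CO2 (difference 1.31, adjusted p = 0.00052).

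The hormone lists held fewer genes. Of the AUX/IAA genes on the list, limma called 0 of 6 for ambient minus high CO2 in each genotype. At an unadjusted p under 0.05 there were 0, 0 and 1 in WT, cat2 and GO5. The widest values were those of IAA18, 0.33 in WT and 0.40 in GO5, and of IAA34, -0.24 in cat2. IAA20, IAA30, IAA31, IAA33 and IAA34 had mean signals at percentiles 5.68 to 31.2 of all probe sets, where a lower signal could hardly be seen. GH3.17, which joins auxin to amino acids, was lower in all genotypes, by -1.07 ± 0.18 in WT (adjusted p = 0.000964), -0.93 in cat2 (0.00171) and -0.81 in GO5 (0.00328), the WT call being lost when only the arrays compared were fitted. HAT2, a homeodomain gene of auxin and shade responses, was lower by -2.14 ± 0.50 in cat2 (adjusted p = 0.00772) and -1.65 in GO5 (0.0265), with -1.45 in WT (0.103). The GO5 call for HAT2 was lost without any of 4 single arrays. GID1B, a gibberellin receptor, was higher by 1.38 ± 0.35 in cat2 (adjusted p = 0.0125) and 1.53 in GO5 (0.00388), with 0.71 in WT (0.263); the cat2 call was lost without any of 3 single arrays and with only the arrays compared.

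**Figure D4:**
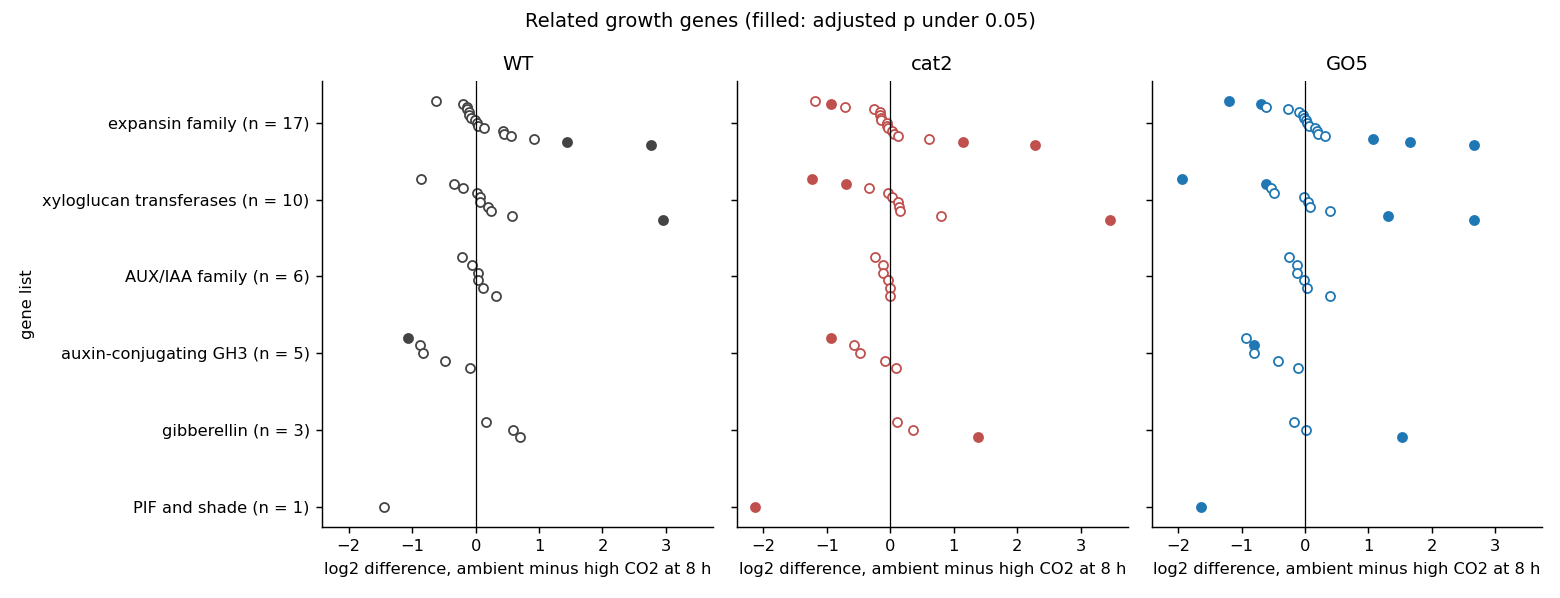
Log2 difference of ambient minus high CO2 at 8 h (horizontal axis) for the 42 related genes, 1 point each, by list (vertical axis) and genotype (panels), with filled points for an adjusted p under 0.05 in limma. Points lie on both sides of 0 within the expansins and xyloglucan transferases, with 4, 9 and 12 filled points in WT, cat2 and GO5.

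Over 8 h at high CO2, the step in which the RCA signal was also lower, the related genes that changed were mostly lower than at 0 h in all genotypes. limma called 7 of 42 in WT (1 higher, 6 lower), 8 in cat2 (1 and 7) and 9 in GO5 (2 and 7), or 16.7%, 19.0% and 21.4%, where 13.4%, 12.5% and 13.9% of all probe sets were called. Calls in the lower direction took in 6.5%, 5.92% and 6.87% of all probe sets in WT, cat2 and GO5. EXLA2 was lower by -1.28 ± 0.19 in WT (adjusted p = 7.57e-05), -1.08 in cat2 (0.000509) and -1.44 in GO5 (1.66e-05), so that it was lower also in GO5, where EXLA1 differed by -0.036. XTH32 was lower by -1.50, -1.49 and -1.75 (adjusted p = 0.000675, 0.000802 and 0.000133) and XTH33 by -1.52, -0.95 and -1.25 (2.59e-05, 0.00343 and 0.00022). EXGT-A3 was lower by -1.10 in WT, -0.996 in cat2 and -0.66 in GO5 (adjusted p = 0.000472, 0.00133 and 0.0255), and the GO5 call was lost without any of 4 single arrays. GID1A was higher by 1.12 ± 0.22 in WT, 1.42 in cat2 and 1.515 in GO5 (adjusted p = 0.00121, 0.000113 and 4.99e-05). IAA18 was lower in WT (-0.51, adjusted p = 0.0371) and cat2 (-0.67, 0.00653), and the WT call was lost without any of 5 single arrays. In GO5 GH3.9 was lower by -1.08 and GH3.17 by -0.60 (limma adjusted p = 0.0467 and 0.0288), and GID1C was higher by 0.85 (0.00247). GH3.9 differed by -0.71 in WT and -0.88 in cat2, and GH3.17 by -0.20 and -0.41, without a call. In cat2 XTH18 was lower by -1.56 (limma adjusted p = 0.039). The GH3.9, GH3.17 and XTH18 calls were each lost on leaving out 1 of several arrays.

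Few of the related genes were called between genotypes at ambient CO2. cat2 minus WT had 0 calls of 42 in limma (2 at an unadjusted p under 0.05), where 0.703% of all probe sets were called. GO5 minus WT had 1 call (2.38%, against 18.4% of all probe sets), XTH29, higher by 1.12 ± 0.24 (adjusted p = 0.00249). GO5 minus cat2 had 2 (4.76%, against 8.2%): XTH29, higher by 1.23 ± 0.24 (adjusted p = 0.0022), and IAA18, higher by 0.68 ± 0.16 (0.0103). The IAA18 call was lost without GO5 ambient replicate 2 or cat2 ambient replicate 3. All 3 calls were lost when only the arrays compared were fitted, and XTH29 is a dim probe set, at about 2.6 to 2.9 in the other 8 groups. In ARL, a gene chosen with these values known, GO5 arrays lay above all WT and all cat2 arrays. The same held for GID1B and XTH29 among the related genes. Of all probe sets, 10.3% were higher in GO5 without overlap against WT and 12% against cat2, each taken alone. The share higher against both was not computed. The differences between genotype responses to the transfer gave 0 calls among the 42 genes for each pair (1, 3 and 1 at an unadjusted p under 0.05 for cat2 minus WT, GO5 minus WT and GO5 minus cat2), where 0.0967%, 2.78% and 0.492% of all probe sets were called. At high CO2 after 8 h, EXLA1 and EXO were the members above WT without overlap in GO5, and 5.24% of all probe sets were; against cat2 ARL joined them, beside 7.03% of all probe sets.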

How the data were processed

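RNA from 27 rosette samples was hybridised to ATH1-type arrays. The values deposited by the authors are log2 signals of each array's probe sets. The submitters' processing notes name affy in R 2.15.0 together with both RMA and GCRMA, and which of the latter made the values is not settled. The median signal of an array ran from 5.28 to 5.52, and no further scaling was applied in the main fit.

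All 22746 probe sets that are not controls entered a limma fit (version 3.58.1, R 4.3.3) over the 27 arrays, 1 mean per group, with Benjamini-Hochberg adjusted p-values over all of them in each comparison and a threshold of 0.05. Simulated data with known changes were used to test the script. Of these probe sets 13513 have 1 paired gene, 503 several and 8730 none; names come from the platform table and RefSeq (13436 matched), and no coordinates or sequences are given.

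The 5 genes and the 12 related lists were chosen with earlier results of these data known. From each list, up to 4 called genes with the largest differences were to be named, or up to 2 where none was called; other genes named here were chosen after their values were seen. Differences between replicates are between pools of rosettes labelled as biological replicates.

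Replicate numbers pair no plants by label. Deviations of same-numbered arrays had r of -0.40 to 0.80 (median 0.083), with 50 of 108 pairs over 0.1. Of the comparisons of 2 groups, those of GO5 with cat2 were the ones in which every such pair was over 0.1, so the block bears on them. The response of GO5 minus that of cat2 also takes in pairs with r of 0.047 and 0.081.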

Additional observations from a re-analysis of the deposited data

How the results depend on the processing

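Of 50 named calls of related genes, 32 held under every alternative run that included the gene. Whichever array was left out, 36 held, and none changed direction. Genes with dim probe sets, XTH29 and XTH33 among them, were absent from the run without such probe sets. Their calls were therefore not tested in that run, and some are counted among the 32. Alternatives were quantile normalization, median centring, trend and robust variances, dim probe sets left out (below percentile 40), only the arrays compared, the replicate block and each array left out. Leaving out WT ambient replicate 1 and cat2 ambient replicate 3 together, or the third 0 h arrays, was added after seeing the data. The WT count for ambient minus high CO2 was 1 with only the arrays compared, against 4. Leaving out 1 array gave 7 to 11 calls in GO5 for ambient minus high CO2 against 12, 0 to 1 for cat2 minus WT at ambient against 0, and 1 to 3 for GO5 minus WT and for GO5 minus cat2. For GO5 minus WT at ambient, with 1 call, there were 0 without dim probe sets or with only the arrays compared, 2 with median centring, 2 with the replicate block and 3 without both added arrays. For GO5 minus cat2, with 2 calls, there was 1 without dim probe sets and 0 with only the arrays compared; the replicate block gave 3, and it changed no other call of a named gene. Differences of responses, 0 in the main fit, gave 0 to 1 for GO5 minus WT and GO5 minus cat2 with 1 array left out, and 1 for cat2 minus WT without both added arrays. Settings that leave out dim probe sets or arrays, or fit only the arrays compared, use fewer data by construction; for median centring and the replicate block the cause was not tested. Median centring moved the median of all probe sets from -0.045 to -0.15 for the response of GO5 minus that of WT, the largest of these shifts. Signals near the background limit IAA29 and XTH29, and they are not the only genes so limited. Other related genes with means below percentile 40 include IAA20, IAA30, IAA31, IAA33, IAA34, GH3.1, GH3.9, EXLA3, EXPA7, EXPA18, EXPA21 and EXPA24. Also below it were EXPA9, EXPA20, EXPB2, EXPB5, AT4G30380, XTH20, XTH21, XTH26 and XTH33. In the dimmest of these a lower signal could hardly be seen. Nearer percentile 40, XTH33 was called lower after 8 h at high CO2 in every genotype and GH3.9 in GO5. The high-CO2 means of EXPA16 and XTH19 also lay in that dim range in every genotype, so their ambient minus high CO2 differences may be understated.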
